A study of Rattus norvegicus with 10 samples.

Results

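Serpins are a family of proteins built on one fold, most of which inhibit serine proteases by offering an exposed loop as a false substrate. The protease cuts the loop, stays covalently bound and is dragged across the serpin, so that each molecule of inhibitor is used up on one molecule of enzyme. Hepatocytes secrete the serpins that restrain clotting, fibrinolysis, complement and leukocyte proteases in plasma, while clade B serpins mostly stay inside cells and a few members carry hormones or help collagen to fold. The family is described here in the livers of 5 rats fed HMB and 5 control rats. Its members were all probe sets of the Affymetrix Rat Genome 230 2.0 array, a 3' expression array, whose gene symbol begins with Serpin and names 1 gene. They numbered 38 of 31042 probe sets and 33 of 14217 genes, with each gene represented by the probe set of highest mean over all 10 arrays. Clade A held 12 of the 33 genes, clade B 11, clades E, F and I 2 each, and clades C, D, G and H 1 each. The roles given below are those known for the rat, mouse or human protein of the same name.

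The HMB rats were Harlan Sprague Dawley animals that ate 10000 ppm of 2-hydroxy-4-methoxybenzophenone (oxybenzone, a sunscreen ultraviolet filter) for 13 weeks, and the control rats were of the same strain and ate 0 ppm. All were on the NTP-2000 diet, 5 to a cage, so that cage and HMB cannot be told apart if each group filled 1 cage. Each value is the log2 signal of 1 array from the liver of 1 animal, and the numbers after HMB and Control only name animals. HMB 1 carries an HMB title and chemical label but a dose label of 0 ppm, and it was kept with the HMB rats. Hepatocyte markers were bright in every animal, with a mean log2 signal over 9 measured genes of 12.76 to 12.91 in HMB livers and 12.86 to 12.95 in Control livers. Probe sets differ in how strongly they bind their target, so the signals below compare animals for 1 gene and not 1 gene with another.

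The comparison asked whether 13 weeks of dietary HMB changed the serpin transcripts of the liver. No serpin passed the test. Of the 33 genes, 0 were called (limma, Benjamini-Hochberg adjusted p under 0.05 over all genes), beside 1.72% of all genes, and of the 38 probe sets 0 passed, beside 1.7% of all probe sets. At an unadjusted p under 0.05 there were 3 serpins, or 9.09%, beside 24.9% of all genes. The 3 were Serpinb11 (limma adjusted p = 0.131, the smallest of the family), Serpina3n (adjusted p = 0.172) and Serpina12 (adjusted p = 0.182), of which Serpinb11 was singled out after its value was seen. In none of the 33 did all HMB animals lie above or all below the Control animals, a separation seen in 6.12% of all genes. Differences, always HMB minus Control on the log2 scale, ran from -0.39 to 0.35 with a median of -0.03, beside -0.02 over all genes, and 13 were above 0 and 20 below. With 1 animal left out, the share of all genes called ran from 0% (without Control 2, 3 or 5, or without HMB 2) to 7.13% (without Control 1), and the serpin count was 0 each time. In whole liver, fewer cells of a type and less RNA per cell cannot be told apart.

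**Figure D1:**
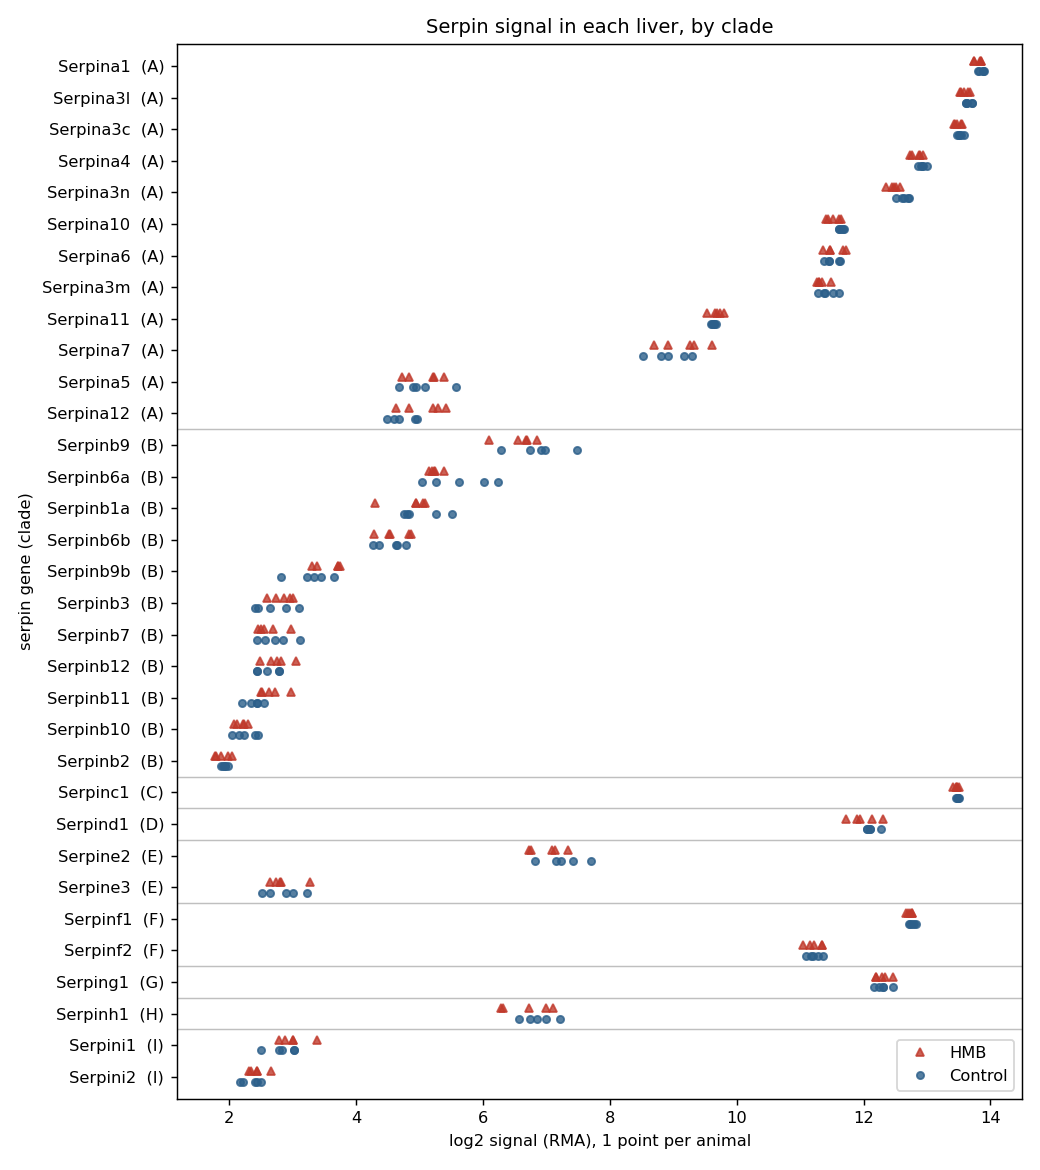
Log2 signal (horizontal axis) of the 33 serpin genes in each of the 5 HMB livers (triangles) and 5 Control livers (circles), with genes grouped by clade. The HMB and Control points overlap in every row.

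The intervals were narrowest among the bright serpins. The arrays placed 14 serpins in the brightest 10% of genes (mean log2 signal of 9.39 or more), and these were 9 of clade A together with Serpinc1, Serpind1, Serpinf1, Serpinf2 and Serping1. Among them the SD between Control animals ran from 0.0193 to 0.125 (median 0.0491), and that between HMB animals from 0.0349 to 0.218 (median 0.0859, n = 5 per group). For 10 of the 14, or 71.4%, the 95% interval of the difference lay within 1.2-fold in either direction, beside 52.5% of all genes of the brightest 10%. The other 4 were Serpina3n, Serpina10, Serpina3m and Serpind1, and for all 14 the interval lay within 1.5-fold, beside 94.3% of all genes of the brightest 10%. Over the whole family 12 of 33, or 36.4%, lay within 1.2-fold, beside 21.9% of all genes, and 27 of 33, or 81.8%, within 1.5-fold, beside 86.1% of all genes. The remaining 2 of those 12 were among the dimmest genes on the arrays, with mean signals of 1.91 and 2.23, where little of a difference would show. The brightest serpin, Serpina1, had a mean of 13.83 and the brightest gene on the arrays 14.59, and whether probe sets near this upper end were saturated was not tested, so that these intervals are those of the signal and not of the amount of transcript.

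**Figure D2:**
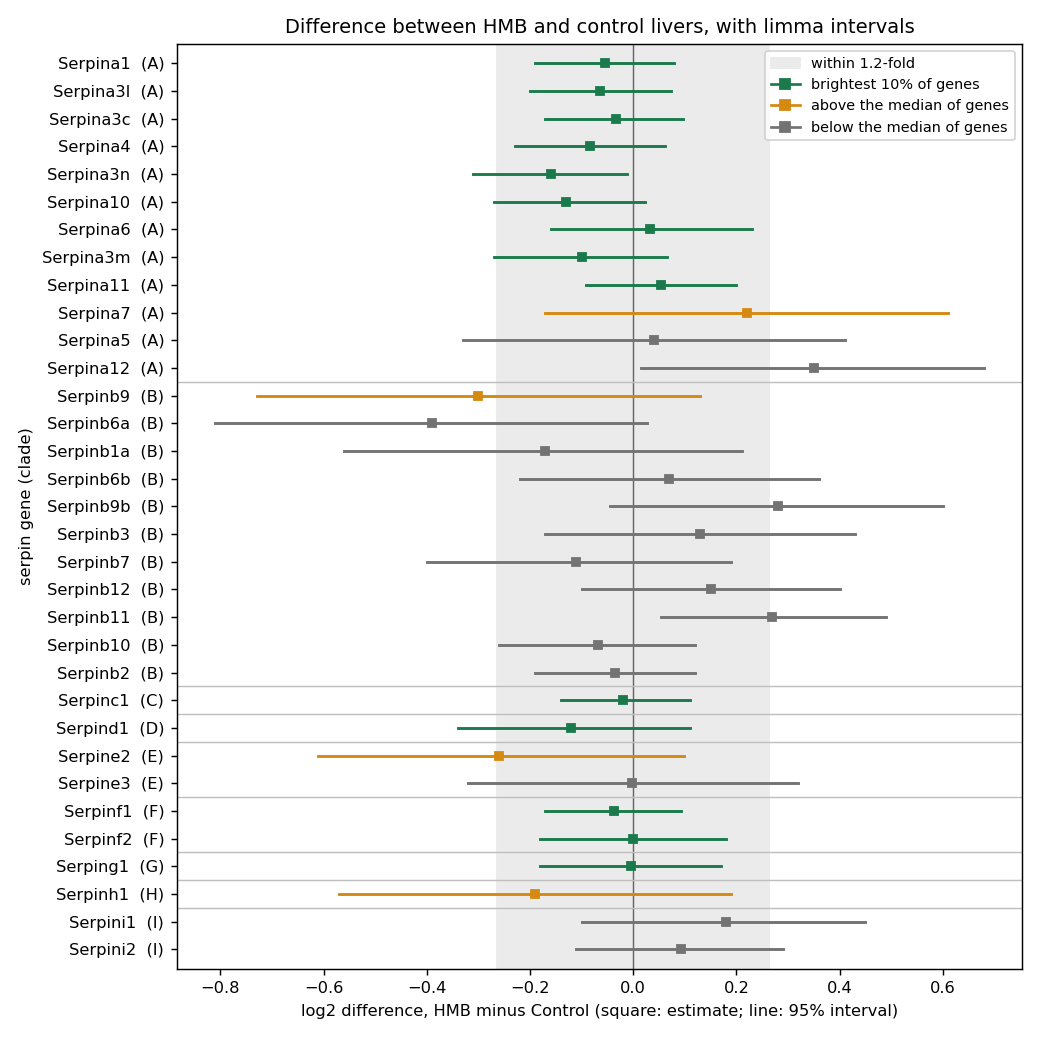
Log2 difference, HMB minus Control, of each serpin (squares) with its 95% limma interval (lines), grouped by clade, with the grey band marking 1.2-fold in either direction. Intervals of the 14 serpins in the brightest 10% of genes are short and centred between -0.16 and 0.05, while those of the other 19 are mostly wider and centred between -0.39 and 0.35.

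Among the serpins that restrain clotting, the groups overlapped in each. Serpinc1, antithrombin, which blocks thrombin and factor Xa, had a log2 signal of 13.47, 13.41, 13.51, 13.46 and 13.47 in HMB livers, against 13.49, 13.48, 13.46, 13.51 and 13.49 in Control livers. The animals of both groups lay within 0.1 of each other, and the difference was -0.02 (95% interval -0.14 to 0.11, limma adjusted p = 0.855). Serpind1, heparin cofactor II, a second thrombin inhibitor, had 12.3, 12.13, 11.73, 11.89 and 11.95 in HMB livers, against 12.06, 12.28, 12.05, 12.1 and 12.1 in Control livers. HMB 3, 4 and 5 were below every Control animal while HMB 1 was above every one, and the difference of -0.12 (interval -0.34 to 0.11, adjusted p = 0.485) was within the spread. Serpina10, the protein Z-dependent inhibitor of factor Xa, had 11.61, 11.64, 11.41, 11.52 and 11.44 in HMB livers, against 11.68, 11.7, 11.65, 11.61 and 11.62 in Control livers. In 4 of 5 HMB animals it lay below all Control animals, in HMB 1 by less than 0.01, with a difference of -0.13 (interval -0.27 to 0.02, adjusted p = 0.268). Serpina5, the protein C inhibitor, lay below the median level of all genes, was named for its role after its values were known, and had 4.72, 5.39, 4.84, 5.23 and 5.22 in HMB livers, against 4.67, 5.58, 5.09, 4.95 and 4.9 in Control livers. All its HMB values lay inside the Control range, with a difference of 0.04 (interval -0.33 to 0.41, adjusted p = 0.902).

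Of 9 measured genes among coagulation and contact proteases and their partners, including the genes of prothrombin and factors IX and X, 0 were called by limma and 0 had an unadjusted p under 0.05, beside 1.72% and 24.9% of all genes, with a median difference of 0.02. F12, factor XII, had a log2 difference of 0.05 (limma adjusted p = 0.61). Tfpi, an inhibitor of the tissue factor pathway that the list also holds, had a log2 difference of 0.05 (limma adjusted p = 0.773). These adjusted values were the smallest of the list.

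Serpinf2, alpha-2-antiplasmin, the main plasma inhibitor of plasmin, had 11.05, 11.15, 11.35, 11.35 and 11.22 in HMB livers, against 11.18, 11.1, 11.36, 11.2 and 11.28 in Control livers. The group means were both 11.22, and HMB 1 alone lay outside the Control range, below it. Its difference was below 0.01 in size, with an interval of -0.18 to 0.18 (limma adjusted p = 0.998). Serpine2, protease nexin-1, which binds thrombin and urokinase at cell surfaces, had 7.09, 7.13, 6.72, 6.76 and 7.34 in HMB livers, against 7.15, 7.23, 7.42, 7.71 and 6.82 in Control livers. The groups overlapped, with 2 HMB animals below all Control animals, and the difference was -0.26 (interval -0.61 to 0.10, adjusted p = 0.34). The other clade E member, Serpine3, was dim in both groups, at 2.85 ± 0.241 in HMB livers and 2.86 ± 0.282 in Control livers. Of 10 measured genes of the plasminogen system 0 were called, beside 1.72% of all genes, with a median difference of 0.01. An unadjusted p under 0.05 was found for 0, beside 24.9% of all genes. Plg, plasminogen, was at 13.09 ± 0.0435 in HMB livers and 13.18 ± 0.0227 in Control livers (difference -0.09, adjusted p = 0.327). Plaur, the urokinase receptor, differed by 0.19 (adjusted p = 0.361).

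Serping1, the C1 inhibitor, which stops the first proteases of complement and the contact system, had 12.46, 12.34, 12.2, 12.2 and 12.29 in HMB livers, against 12.31, 12.47, 12.17, 12.31 and 12.25 in Control livers. Every HMB value lay inside the Control range, and the interval of the difference was -0.18 to 0.17 (limma adjusted p = 0.978). Of 6 measured complement proteases 0 were called, beside 1.72% of all genes, and their median difference was -0.05. An unadjusted p under 0.05 was found for 1 of them, beside 24.9% of all genes. The 1 was Cfi, factor I, which cuts activated complement proteins, at -0.14 ± 0.065 (SE, adjusted p = 0.196), and Masp2, a protease of the lectin pathway, stood at -0.08 (adjusted p = 0.445).

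Clade A also holds inhibitors of leukocyte and tissue proteases. Serpina1, alpha-1-antitrypsin, the plasma inhibitor of neutrophil elastase, had 13.84, 13.85, 13.85, 13.74 and 13.75 in HMB livers, against 13.81, 13.88, 13.82, 13.89 and 13.9 in Control livers. HMB 4 and 5 were below all Control animals by at most 0.1, and the difference was -0.05 (interval -0.19 to 0.08, limma adjusted p = 0.595). Serpina4, kallistatin, an inhibitor of tissue kallikrein, had 12.94, 12.77, 12.73, 12.89 and 12.87 in HMB livers, against 12.86, 12.92, 13.0, 12.9 and 12.94 in Control livers. HMB 2 and HMB 3 were below all Control animals, and the difference was -0.08 (interval -0.23 to 0.06, adjusted p = 0.448). Serpina11, of the same clade, had 9.8, 9.73, 9.66, 9.69 and 9.54 in HMB livers, against 9.68, 9.61, 9.64, 9.64 and 9.59 in Control livers. In HMB 1, 2 and 4 it was above all Control animals and in HMB 5 below all, so that the HMB animals spread more widely (SD 0.0961) than the Control animals (SD 0.0348, n = 5 each), around a difference of 0.05 (adjusted p = 0.638).

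The Serpina3 genes of rodents are a cluster of copies related to human alpha-1-antichymotrypsin, and 4 of them were measured. Serpina3n, an acute phase member, had 12.57, 12.48, 12.52, 12.45 and 12.35 in HMB livers, against 12.71, 12.7, 12.52, 12.61 and 12.64 in Control livers. In 4 of 5 HMB animals it was below all Control animals, in HMB 3 by less than 0.01, and HMB 1 lay above Control 3 only. Its difference of -0.16 ± 0.069 (SE, interval -0.31 to -0.01) was the largest in size among the bright serpins, at 0.893-fold, and did not pass (adjusted p = 0.172). Serpina3m had 11.48, 11.34, 11.3, 11.27 and 11.3 in HMB livers, against 11.38, 11.61, 11.4, 11.29 and 11.52 in Control livers, and Serpina3c had 13.56, 13.53, 13.48, 13.45 and 13.43 in HMB livers, against 13.54, 13.58, 13.48, 13.51 and 13.51 in Control livers. Both overlapped between the groups, with HMB 4 the lowest of all 10 animals in Serpina3m and HMB 5 in Serpina3c. Serpina3m stood at -0.10 (interval -0.27 to 0.07, adjusted p = 0.416), Serpina3l at -0.06 (interval -0.20 to 0.07, adjusted p = 0.537) and Serpina3c at -0.03 (interval -0.17 to 0.10, adjusted p = 0.748). In Serpina3l, HMB 3, 4 and 5 had 13.58, 13.52 and 13.54 and lay below all Control animals (13.62 to 13.71), while HMB 1 and 2 at 13.68 and 13.64 did not. Probe sequences were not used here, so how far these probe sets bind more than 1 copy is unknown, and the 4 are uncertain as values of single genes.

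Among the Serpina3 genes, Serpina3c had no sequence before its start in the RefSeq table. The 250 bases before the start of the other 3 are shown because they show how alike these copies are and where they differ at a STAT motif. These letters are a general motif of the STAT family and do not tell which STAT protein binds. They are from RefSeq (assembly GRCr8), run 5′ to 3′ towards the gene, and capitals mark matches to TTCNNNGAA, a motif that reads the same on both strands.
Serpina3l, chr6:129062956-129063205, plus strand: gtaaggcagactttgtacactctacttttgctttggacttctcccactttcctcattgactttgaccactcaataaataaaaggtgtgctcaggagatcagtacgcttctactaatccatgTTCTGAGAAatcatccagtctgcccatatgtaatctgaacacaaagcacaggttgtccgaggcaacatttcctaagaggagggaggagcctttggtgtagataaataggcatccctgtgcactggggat
Serpina3n, chr6:129088142-129088391, plus strand: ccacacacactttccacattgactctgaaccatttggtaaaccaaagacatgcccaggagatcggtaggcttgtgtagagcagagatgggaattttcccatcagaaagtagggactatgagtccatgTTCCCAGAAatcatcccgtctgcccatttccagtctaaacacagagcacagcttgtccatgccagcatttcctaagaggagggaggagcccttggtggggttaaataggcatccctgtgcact
Serpina3m, chr6:128836840-128837089, minus strand: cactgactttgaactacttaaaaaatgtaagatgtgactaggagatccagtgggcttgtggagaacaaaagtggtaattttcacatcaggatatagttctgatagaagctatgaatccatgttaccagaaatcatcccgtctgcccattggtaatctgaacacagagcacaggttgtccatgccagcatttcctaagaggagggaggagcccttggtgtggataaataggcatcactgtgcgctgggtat
The match is TTCTGAGAA in Serpina3l, at 129 bases before the start, and TTCCCAGAA in Serpina3n, at 123 bases, and Serpina3m has none in this window. Serpina3l and Serpina3n shared 81.2% of 207 aligned bases, Serpina3l and Serpina3m 84.8% of 197, and Serpina3n and Serpina3m 83.3% of 234, with unbroken shared runs of up to 45 bases. Of the 33 serpins, 27 had such a window in the RefSeq table, and 4 of the 27 held the motif (Serpina3l, Serpina3n, Serpina11 and Serpinb9b), beside 8.19% of 27457 genes. A C/EBP motif, TTGCNNAA on either strand, was found in 7 of the 27, beside 9.99% of genes, and an HNF1 motif, GTTAAT and ATT with 1 base between them on either strand, in 1, Serpina4, beside 0.357%. These motifs were chosen with the values known, and the matches describe letters only.

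Of 18 acute phase proteins 0 were called by limma, beside 1.72% of all genes, with a median difference of -0.05. An unadjusted p under 0.05 was found for 2, beside 24.9% of all genes. Those 2 lay on opposite sides of 0, with Orm1, the orosomucoid gene, at 0.17 ± 0.077 (SE, adjusted p = 0.19) and A2m, the alpha-2-macroglobulin of acute inflammation in rats, at -0.69 ± 0.31 (adjusted p = 0.196). Among 17 genes of acute phase and TGF-beta signalling 1 fell, and 7 had an unadjusted p under 0.05, beside 24.9% of all genes. Stat3, which carries the interleukin-6 signal, had 8.35, 8.3, 8.03, 8.13 and 8.58 in HMB livers, against 8.59, 9.0, 8.76, 8.97 and 9.04 in Control livers. All HMB values lay below all Control values, with HMB 5 within 0.01 of Control 1, and the difference was -0.59 ± 0.12 (adjusted p = 0.0384). The median of this list was -0.18.

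Hormone carriers are serpins that no longer inhibit proteases. Serpina6, corticosteroid-binding globulin, had 11.73, 11.68, 11.36, 11.47 and 11.47 in HMB livers, against 11.45, 11.63, 11.46, 11.61 and 11.38 in Control livers. HMB 1 and 2 were above every Control animal and HMB 3 was below every one, which left a difference of 0.03 (interval -0.16 to 0.23, limma adjusted p = 0.84). Serpina7, thyroxine-binding globulin, had 8.69, 9.26, 8.92, 9.61 and 9.33 in HMB livers, against 8.52, 9.29, 9.17, 8.81 and 8.91 in Control livers. Its animals spread over more than 0.7 within each group, and a difference of 0.22 had an interval of -0.17 to 0.61 (adjusted p = 0.457). Of 10 genes that carry or handle corticosteroids and thyroid hormones, serpins aside, 0 were called, beside 1.72% of all genes, and the median was -0.09. An unadjusted p under 0.05 was found for 1, beside 24.9% of all genes. The 1 was Dio1, the deiodinase that activates thyroxine in liver, at -0.42 ± 0.098 (SE, adjusted p = 0.0547), with every HMB value (5.85 to 6.25) below every Control value (6.26 to 6.64). Thrsp, a thyroid hormone responsive gene, differed by -0.44 (adjusted p = 0.291).

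Serpina12, vaspin, a serpin first described in fat tissue, had the highest positive difference of the family. It had 4.63, 4.84, 5.29, 5.41 and 5.22 in HMB livers, against 4.93, 4.59, 4.96, 4.49 and 4.67 in Control livers. HMB 3, 4 and 5 were above all Control animals and HMB 1 and 2 were inside their range. The difference was 0.35 ± 0.15 (SE, interval 0.02 to 0.68), or 1.28-fold, and did not pass (limma adjusted p = 0.182). Serpinf1, pigment epithelium-derived factor, a secreted serpin that inhibits no protease, had 12.77, 12.73, 12.7, 12.67 and 12.77 in HMB livers, against 12.79, 12.82, 12.77, 12.72 and 12.73 in Control livers. The SD was 0.0425 in HMB livers and 0.0436 in Control livers (n = 5 each), and the difference was -0.04 with an interval of -0.17 to 0.09 (adjusted p = 0.725).

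Serpina10, Serpina6, Serpina1, Serpina11, Serpina12, Serpina4, Serpina5, Serpina3m, Serpina3c, Serpina3l and Serpina3n follow each other in this order on rat chromosome 6 in the RefSeq assembly GRCr8, and Serpina7 lies on the X chromosome. Along that row of 11 the differences were -0.13, 0.03, -0.05, 0.05, 0.35, -0.08, 0.04, -0.10, -0.03, -0.06 and -0.16. Serpina12 thus stood between neighbours at 0.05 and -0.08. Over all 12 genes of clade A, 5 were above 0 and 7 below, with a median of -0.04.

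Serpinh1, also called HSP47, is a chaperone of the endoplasmic reticulum that binds newly made collagen and inhibits no protease. It had 6.72, 6.28, 6.99, 6.32 and 7.1 in HMB livers, against 6.74, 6.85, 6.99, 7.22 and 6.57 in Control livers. HMB 2 and HMB 4 were below all Control animals and the other 3 were inside their range, with a difference of -0.19 (interval -0.57 to 0.19, limma adjusted p = 0.502). Of 20 genes of collagens and collagen processing, Col6a3, a collagen VI chain, fell by 0.63 on the log2 scale (SE 0.13, adjusted p = 0.0425), and 19 did not pass, with a median of -0.08. Its values were 6.98, 6.92, 7.03, 7.2 and 7.09 in HMB livers and 7.86, 8.06, 7.5, 7.72 and 7.24 in Control livers, with no overlap. Over all genes 1.72% were called and 6.12% had no overlap between the groups.

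Serpinh1 is a known target of heat shock factor, and its 250 bases before the start are shown because they were the single serpin window with a heat shock motif (GAA, TTC and GAA with 2 bases between each, on either strand), found in 0.663% of 27457 genes. The capitals mark the match, which lies on the opposite strand 35 bases before the start, and the sequence is from RefSeq (assembly GRCr8).
Serpinh1, chr1:163062977-163063226, minus strand: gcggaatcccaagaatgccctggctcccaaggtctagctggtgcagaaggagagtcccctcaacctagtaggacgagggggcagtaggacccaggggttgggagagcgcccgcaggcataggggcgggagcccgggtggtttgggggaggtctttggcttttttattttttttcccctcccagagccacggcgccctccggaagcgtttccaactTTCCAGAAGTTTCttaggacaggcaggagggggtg
Of 8 measured heat shock factor genes and targets 0 were called by limma, beside 1.72% of all genes, with a median of -0.19. An unadjusted p under 0.05 was found for 0, beside 24.9% of all genes. All 8 were above the median level and below 0, as were 2736 of 3554 and 2532 of 3555 genes in the upper pair of 4 equal groups of all genes by level. Hsf1, the factor itself, differed by -0.26 (adjusted p = 0.231) and Dnajb1, a co-chaperone, by -0.29 (adjusted p = 0.315).

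Clade B serpins protect cells from their own or from invading leukocytes' proteases. Of the 11, 1 was above the median level of all genes (5.92), 5 were above 0 and 6 below, and the median difference was -0.04. Serpinb9, the inhibitor of granzyme B, had 6.68, 6.86, 6.55, 6.1 and 6.69 in HMB livers, against 6.92, 6.74, 6.98, 7.48 and 6.29 in Control livers. The groups overlapped and the difference was -0.30 (interval -0.73 to 0.13, limma adjusted p = 0.348), with -0.21 for its second probe set. Serpinb6a, whose mouse counterpart inhibits cathepsin G, had 5.15, 5.39, 5.23, 5.2 and 5.25 in HMB livers, against 5.26, 5.63, 6.01, 6.24 and 5.04 in Control livers. HMB animals were close together (SD 0.0893, n = 5) and lay in the lower part of a wide Control range (SD 0.497, n = 5). The difference of -0.39 ± 0.19 (SE, interval -0.81 to 0.03), the largest in size of the family, did not pass (adjusted p = 0.225). It was -0.24 without Control 4 and -0.54 without Control 5. Serpinb1a, an inhibitor of neutrophil elastase named because its probe sets differ, gave -0.17 with the brighter and 0.17 with the dimmer of its 2 probe sets, and neither passed (adjusted p = 0.56 and 0.402 over probe sets).

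The other 8 clade B genes (Serpinb2, b3, b6b, b7, b9b, b10, b11 and b12), like Serpine3, Serpini1 and Serpini2, were dim, with means over all 10 arrays between 1.91 and 4.57. No detection calls were used here, so whether they were above background is not known. Serpinb11 had 2.52, 2.5, 2.63, 2.72 and 2.97 in HMB livers, against 2.55, 2.35, 2.2, 2.44 and 2.44 in Control livers, a difference of 0.27 (interval 0.05 to 0.49). The differences of these 11 dim genes ran from -0.11 to 0.28. In the lowest 25% of all genes by level the median difference was 0.11, and it was 0.11 in the 10 serpins there. In the next 3 groups of 25% of the genes, from dim to bright, the medians were 0.04 for 5 serpins and 0.03 for all genes, -0.26 for 3 serpins and -0.12 for all genes, and -0.04 for 15 serpins and -0.07 for all genes. The whole spread of log2 values within each array, as an SD, was 2.40 ± 0.0261 in HMB animals and 2.47 ± 0.0236 in Control animals (two-sided exact permutation p = 0.00794, no smaller one being possible with 252 assignments, adjusted p = 0.0397 over 5 array measures). Its part in these medians was not tested. Serpini1, neuroserpin, the inhibitor of tissue plasminogen activator in brain, had 2.88, 3.38, 3.0, 3.0 and 2.79 in HMB livers, against 3.02, 2.79, 2.5, 3.02 and 2.83 in Control livers, with a difference of 0.18 (limma adjusted p = 0.392). HMB 2 was above all Control animals and the other 4 were inside their range. Serpinb9b, a rodent relative of Serpinb9, had 3.75, 3.71, 3.71, 3.39 and 3.31 in HMB livers, against 3.65, 3.23, 2.81, 3.45 and 3.34 in Control livers. HMB 1, 2 and 3 were above all Control animals and HMB 4 and 5 were inside their range, with a difference of 0.28 (interval -0.04 to 0.60, adjusted p = 0.26), and it is named for these values. The second probe sets of Serpinb7, Serpini1 and Serpinh1 had differences of -0.17, 0.05 and 0.04, and none passed.

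Of 8 measured leukocyte and mast cell proteases 0 were called by limma, beside 1.72% of all genes, with a median of 0.20. An unadjusted p under 0.05 was found for 3, beside 24.9% of all genes. All 8 were below the median level of all genes, and 7 were above 0. In the lower pair of 4 equal groups of all genes by level, 2801 of 3554 and 1973 of 3554 genes were above 0. Tpsb2, a tryptase, differed by 0.35 ± 0.13 (SE, adjusted p = 0.135) and Cma1, a chymase, by 0.25 ± 0.092 (adjusted p = 0.127). The mean of 6 mast cell markers, which share genes with this list, was 2.97 to 3.22 in HMB livers and 2.76 to 2.98 in Control livers. All 6 were also below the median level of all genes. Among 11 cathepsins Ctso, a lysosomal cysteine protease, rose by 0.51 ± 0.11 (adjusted p = 0.0414) and 10 did not pass, with a median below 0.01. It stood at 7.92 to 8.3 in HMB livers and 7.4 to 7.9 in Control livers. Of 7 membrane serine proteases 0 were called, beside 1.72% of all genes, with a median of 0.02. An unadjusted p under 0.05 was found for 3, beside 24.9% of all genes. They included Tmprss2 at -0.40 (adjusted p = 0.0631) and Prss8, prostasin, at 0.36 (adjusted p = 0.0935). The list of other protease inhibitors held 28 measured genes, among them Agt, angiotensinogen, which is a serpin by descent whose symbol does not begin with Serpin, inhibits no protease and stood at 11.93 ± 0.0533 in HMB livers and 11.98 ± 0.0648 in Control livers. Of the 28, Wfdc21, a small WAP-domain protein, rose by 0.93 ± 0.18 (adjusted p = 0.0319), or 1.9-fold. Its values were 8.72, 9.07, 8.65, 9.17 and 8.86 in HMB livers and 8.01, 7.49, 7.69, 8.53 and 8.1 in Control livers, and the other 27 genes did not pass (list median -0.04).

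Of 10 measured hepatocyte transcription factors, the kind that drive secreted serpin genes, Onecut2 fell by 0.42 (SE 0.088, limma adjusted p = 0.0425) and 9 did not pass, with a median of -0.24. An unadjusted p under 0.05 was found for 4 of the 10, beside 24.9% of all genes. Onecut2 ranged over 9.37 to 9.48 in HMB livers and 9.58 to 10.1 in Control livers. Onecut1, also called HNF-6, had 9.32, 8.27, 8.69, 7.61 and 6.24 in HMB livers, against 10.2, 10.07, 9.15, 10.32 and 10.37 in Control livers. HMB 1 overlapped Control 3, and a difference of -1.99 ± 0.47 (SE) missed the threshold (adjusted p = 0.0557). The growth hormone axis regulates some Serpina3 genes and Onecut1 in rats. Of 10 genes of this axis 0 were called and 5 had an unadjusted p under 0.05, beside 1.72% and 24.9% of all genes. The median of the 10 was -0.23, with 8 below 0. Stat5a stood on the other side at 0.29 (adjusted p = 0.11), while Stat5b, named here beside it, was at -0.33 (adjusted p = 0.161). In all, 2 of the 164 genes measured on these 14 lists rose and 3 fell, beside 1.72% of all genes called. That count of 5 was 12 without Control 1, 1 without Control 4 and 2 without HMB 3. It was 0 when any one of Control 2, 3 or 5 or of HMB 2, 4 or 5 was left out.

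In several serpins the same 2 Control animals were the highest and the lowest of their group. Control 4 was the highest and Control 5 the lowest Control animal in 5 of the 33 serpins, or 15.2%, beside 7.74% of all genes. They were Serpinb9, Serpinb6a, Serpine2, Serpinh1 and the dimmer Serpinb6b, and were picked out after their values were seen. The same order held for the mean of 9 Kupffer cell and macrophage markers, at 8.64 in Control 4 and 6.82 in Control 5, with HMB animals between 7.48 and 8.16 and the other Control animals between 7.43 and 7.85. It also held for the mean of 8 endothelial markers, at 7.82 and 6.76 (HMB animals 6.93 to 7.36). The means of 10 stellate cell and fibroblast markers, at 6.51 and 5.8 (HMB animals 5.7 to 6.04), and of 9 T and NK cell markers, at 4.0 and 3.4 (HMB animals 3.61 to 3.88), had it too. Single markers did not all follow, as Cd3d and Cd2 were lowest in Control 4 among Control animals and Col1a1 was highest in Control 5. The means of the other marker lists did not have this order. Among Control animals the mast cell mean was lowest in Control 4, at 2.76, and the erythroid and hepatocyte means were highest in Control 5. Of the genes on the 14 marker lists 0 were called by limma between the groups, beside 1.72% of all genes. With so low a share over all genes, this count says little about cell composition. The part of these markers in the serpin differences was not tested. Without Control 4 the difference of Serpinb9 was -0.15, that of Serpine2 -0.15 and that of Serpinh1 -0.11, and without Control 5 they were -0.45, -0.37 and -0.27. The direction of these changes was fixed by the choice of these serpins. Leaving out the highest Control animal can only raise a difference, and leaving out the lowest can only lower it.

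**Figure D3:**
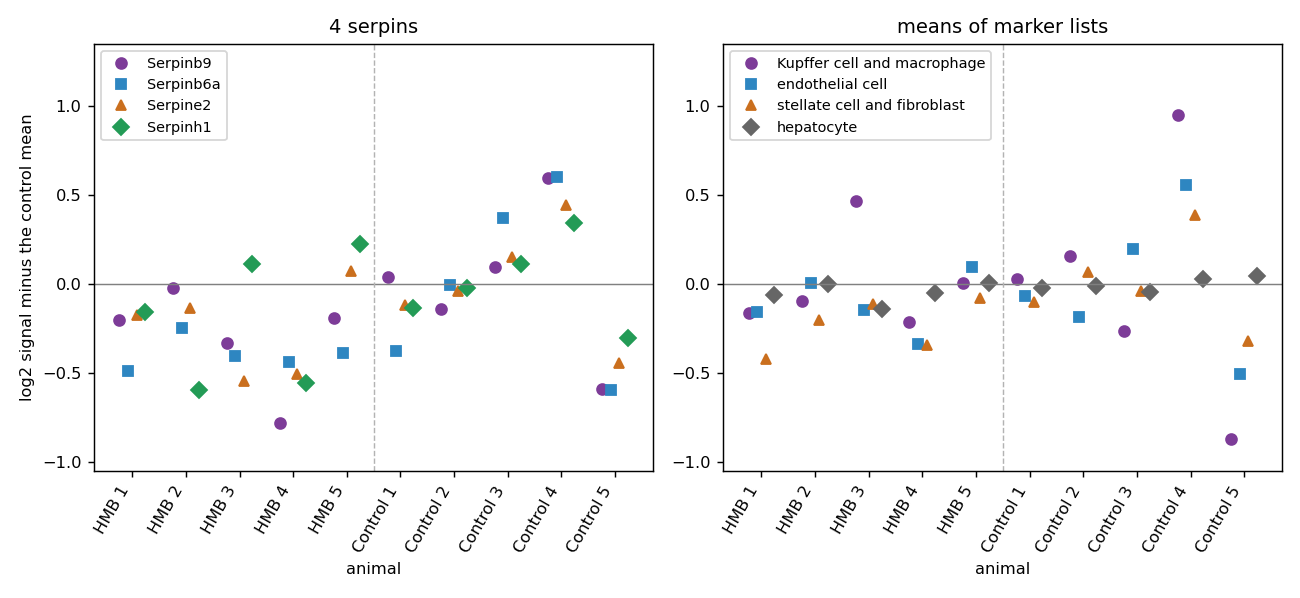
Log2 signal minus the mean of the 5 Control livers, in each animal, for Serpinb9, Serpinb6a, Serpine2 and Serpinh1 (left) and for the means of 4 marker lists (right), with HMB animals left of the dashed line. All 4 serpins and the macrophage, endothelial and stellate means are highest in Control 4 and lowest in Control 5 among Control animals, while the hepatocyte mean stays within 0.14 of the Control mean in all 10.

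HMB 3, 4 and 5 stood apart from HMB 1 and 2 in 6 serpins. All 3 lay above every Control animal, and HMB 1 and 2 did not, in Serpina12 and Serpinb11, which is 2 of 33 beside 2.45% of all genes. They lay below every Control animal, and HMB 1 and 2 did not, in Serpina3l, Serpina3c, Serpind1 and Serpinb2, which is 4 of 33 beside 4.24%. HMB 3 in Serpina3c and HMB 4 in Serpinb2 were below Control 3 by less than 0.01. Serpinb2, with a mean of 1.91, was among the dimmest genes on the arrays. The poly-A control transcripts, added to the RNA before labelling, split the same animals when set against the hybridisation controls. Their log2 difference was -1.92, -1.96, -1.54, -1.78 and -1.47 in HMB animals, against -2.19, -2.05, -1.9, -2.0 and -2.06 in Control animals (exact two-sided permutation p = 0.0238, adjusted p = 0.0595 over 5 array measures). The 3' minus 5' signal of GAPDH was 1.97, 2.09 and 1.9 in HMB 3 to 5, 1.31 and 1.38 in HMB 1 and 2, and 1.38 to 1.77 in Control animals. That of beta-actin was 3.62, 3.96 and 3.58 in HMB 3 to 5, 3.16 and 3.18 in HMB 1 and 2, and 3.25 to 3.64 in Control animals, so that HMB 4 alone lay above the Control range. With the poly-A measure as a covariate the difference of Serpina12 was 0.10 (limma adjusted p = 0.846) and that of Serpind1 0.07. Not every serpin moved towards 0 in that fit, as Serpinb6a went from -0.39 to -0.56. Serpinh1 had the smallest p of the family there (adjusted p = 0.23), and 0 of all genes were called. Without HMB 3 to 5 the differences of Serpina12 and Serpind1 were below 0.01 and 0.10. Both were picked for where HMB 3 to 5 lay. Leaving these animals out could therefore only lower the difference of Serpina12 and raise that of Serpind1. The part of labelling or RNA quality in these differences was not tested.

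**Figure D4:**
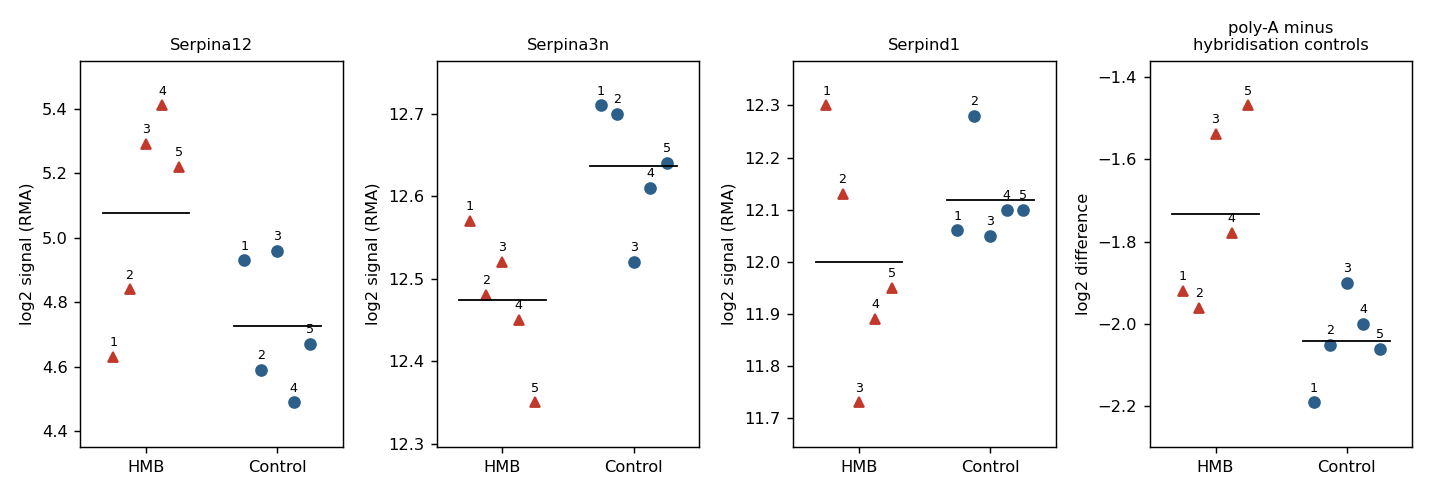
Log2 signal of Serpina12, Serpina3n and Serpind1 and, at right, the poly-A minus hybridisation control signal, in HMB and Control animals, with the number of each animal beside its point and a line at each group mean. HMB 3, 4 and 5 lie above all Control animals in Serpina12 and in the array measure and below them in Serpind1, while in Serpina3n no such split of the HMB animals is seen.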

How the data were processed

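Liver RNA of 10 rats was measured with 1 Affymetrix array each. The log2 values were used as the authors deposited them, made with RMA per the submitters' processing notes, and the version of RMA is not given in the sources used here. Of 31099 probe sets, 57 Affymetrix controls were left out. Gene names came from the platform's annotation, in which 20826 had 1 gene symbol, 436 had several and 9780 had none, and symbols were updated by gene identifier to RefSeq (GRCr8), which matched 20758 probe sets and all 38 serpin probe sets without changing a serpin symbol. Promoter sequences are from RefSeq (GRCr8). The number of arrays, 5 per group, limits the precision. Rats were housed 5 to a cage per the labels' protocols, which do not say which animals shared a cage or a litter, and the tests treated animals as independent.

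Groups came from titles. Tests used limma 3.58.1 in R 4.3.3 (lmFit and eBayes, 8 residual degrees of freedom, prior 4.04 for genes), HMB minus Control, with Benjamini-Hochberg adjustment over all 14217 genes or 31042 probe sets. Intervals are 95% moderated intervals. The step was tested on simulated data. Array measures had exact two-sided permutation tests over 252 assignments. The members and gene lists were chosen with earlier results of these data known.

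Named serpins were those called, those above the median level of all genes, and in each clade the 1 with the largest difference in size and the 1 with the highest mean, which gave 21. Others were named where a clade or probe set comparison needed it (Serpine3, Serpinb1a), and further exceptions are marked. Companion genes were named where called, otherwise up to 2 of each list by smallest p. Alternatives were cyclic loess, quantile normalization, arrays at the same median, no genes of the lowest 25% of mean levels, HMB 1 as a control, no HMB 3 to 5, a trended robust prior, array weights, the poly-A measure as a covariate, the mean of all probe sets of a gene, and each animal left out. For companion genes these were added after the data were seen. Figures used matplotlib 3.10.9 in Python 3.11.15.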

Additional observations from a re-analysis of the deposited data

Results flagged for a closer look

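In 66 sets of 5 values (33 serpins in each group), 2 held a lone animal, where chance would mark about 1 in 20. Serpinb1a was at 4.3 in HMB 1, below the other HMB livers at 4.95 to 5.08. Serpind1 was at 12.28 in Control 2, above the other Control livers at 12.05 to 12.1, and its difference was -0.08 without that animal.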

How the results depend on the processing

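No paired analysis was possible because the labels' animal numbers pair no animals across groups. The count of serpins called was 0 under all 20 alternatives for genes and all 16 for probe sets, with a smallest serpin adjusted p of 0.0731 and 0.0633. Of 419 values of the 21 named serpins under alternatives, 393 kept their direction and 26 changed sign, in 7 serpins, all between -0.12 and 0.10, and the cause was not tested. With HMB 1 counted as a control Serpina11 was at -0.0044 and Serpina6 at -0.052. Without HMB 3 to 5, Serpina3c was at 0.018, Serpina3l at 0.0032, Serpind1 at 0.096, Serpinf2 at -0.12 and Serping1 at 0.099. With the poly-A covariate they were at 0.023, 0.0025, 0.065, -0.11 and 0.09. At the same median, Serpina6 was at -0.0047 and Serpinf2 at -0.037. With array weights Serpinf2 was at -0.012, and after quantile normalization Serping1 was at 0.021. With 1 animal left out Serpina6 ran from -0.015 to 0.078, Serpinf2 from -0.031 to 0.043 and Serping1 from -0.045 to 0.039. The serpin median was -0.07 after cyclic loess, -0.072 at the same median and -0.0083 with the poly-A covariate, and -0.045 to -0.02 with 1 animal left out. Companion genes called numbered 2 after cyclic loess or quantile normalization, 8 at the same median, 9 with array weights, 3 with the mean of probe sets, 0 with HMB 1 as a control, without HMB 3 to 5 or with the poly-A covariate, and 0 to 12 with 1 animal left out. Serpini1 had no value without the lowest 25% of levels.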
